A study of Rattus norvegicus with 9 samples.

Results

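The genes described here are the Hox genes of clusters a, b, c and d, together with the limb-identity factors Pitx1, Tbx4 and Tbx5. They were taken by symbol from the deposited gene table, which lists 40 of them, 37 Hox genes and the 3 limb factors, among 21486 genes. The selection used names and no threshold on a measured value. Gene expression was measured by RNA sequencing of poly(A) RNA from tissue that had formed inside conduits bridging a 2 cm gap in the rat sciatic nerve, which serves the hind limb, collected at day 14. The Hollow group had an empty conduit. The AFMC group had a conduit whose lumen holds aligned fibers and microchannels running along it. The AFMC-AA-SP group had the AFMC conduit loaded with spermidine, a polyamine, on the fiber surface and L-ascorbic acid, vitamin C, inside the fibers. Each group had 3 libraries, and all 3 groups share the injury, the gap and the day. Strain, sex, age and the number of animals were stated in none of the sources used here, so p-values measure only the spread between these libraries.

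Hox genes encode homeodomain transcription factors that give cells an address along the body axis and along the limb. They sit in clusters in which gene order follows the order of the body regions they mark, with low paralog numbers anterior and high numbers posterior, and fibroblasts of adult tissues are known to keep the code of the site they came from. Pitx1 and Tbx4 are transcription factors of the hind limb bud, and Tbx5 is their forelimb counterpart. The question here was which positions of the clusters were expressed in the regenerated tissue, and whether the conduits differed in them.

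The libraries held 18314489 to 26074134 counts in genes. Summed over 8 genes, Schwann cell markers, which define the glia of peripheral nerve, were at 1920 to 2880 CPM (CPM are counts scaled to the same library total) in Hollow, 1210 to 1930 in AFMC and 1880 to 2180 in AFMC-AA-SP. Summed over 5 genes, fibroblast markers were at 37100 to 55200 CPM over the 9 libraries, and none of these 13 markers was at 0 in all libraries. Skeletal muscle markers ran from 126 to 2130 CPM and differed between replicates of each group. Of 5 adipocyte markers, Adipoq, the fat cell hormone adiponectin, was at 15.6 to 20.0 CPM in Hollow, 4.12 to 9.84 in AFMC and 30.3 to 48.8 in AFMC-AA-SP. In AFMC-AA-SP against AFMC 5 of 5 were positive, with a median log2 fold change of 2.33, and 0 passed edgeR's adjusted threshold. The sum of these markers did not separate the groups, at 597 to 812, 215 to 959 and 643 to 804 CPM. AFMC replicate 3 stood apart, with B and plasma cell markers at 971 CPM against 22.3 to 112 in the other 8 libraries and neutrophil markers at 195 CPM against 11.6 to 44.0. In bulk tissue, fewer cells of a type and less RNA per cell cannot be told apart.

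Promoters of some neighbouring genes that stood far apart in level are shown here, since such steps are the main feature of the cluster pattern. RefSeq windows for the GRCr8 build, reaching from 250 bases before to 50 bases after the start of a gene, matched 20 of the 40 genes, with 21 windows because Hoxa10 has 2. The matched genes are members of clusters a and d, Hoxc4, Tbx4 and Tbx5. No gene of cluster b and no other gene of cluster c had a window, so the steps past Hoxb9 and Hoxc11 are not shown. Capitals mark CG dinucleotides, the sites of vertebrate DNA methylation, and each window is written 5′ to 3′ on the strand of its gene. In the Hoxd cluster the windows run from the highest gene, Hoxd8, through Hoxd9 and Hoxd10 to Hoxd11. In the Hoxa cluster they are both windows of Hoxa10 and the window of Hoxa11.
Hoxd8, plus strand, chr3:80014973-80015272: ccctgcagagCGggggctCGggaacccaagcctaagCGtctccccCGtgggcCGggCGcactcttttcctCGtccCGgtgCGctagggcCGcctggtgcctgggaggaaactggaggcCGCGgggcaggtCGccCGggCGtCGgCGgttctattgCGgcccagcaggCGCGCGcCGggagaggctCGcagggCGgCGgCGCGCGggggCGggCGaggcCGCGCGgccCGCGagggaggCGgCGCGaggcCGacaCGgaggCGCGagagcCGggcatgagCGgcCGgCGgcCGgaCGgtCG
Hoxd9, plus strand, chr3:80007756-80008055: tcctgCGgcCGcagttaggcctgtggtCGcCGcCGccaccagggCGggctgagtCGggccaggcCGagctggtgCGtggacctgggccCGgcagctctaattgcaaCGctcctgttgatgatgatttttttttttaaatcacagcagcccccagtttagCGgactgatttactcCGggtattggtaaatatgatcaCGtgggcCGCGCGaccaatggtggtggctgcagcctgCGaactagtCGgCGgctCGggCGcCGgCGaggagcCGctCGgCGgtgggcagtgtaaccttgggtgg
Hoxd10, plus strand, chr3:80001697-80001996: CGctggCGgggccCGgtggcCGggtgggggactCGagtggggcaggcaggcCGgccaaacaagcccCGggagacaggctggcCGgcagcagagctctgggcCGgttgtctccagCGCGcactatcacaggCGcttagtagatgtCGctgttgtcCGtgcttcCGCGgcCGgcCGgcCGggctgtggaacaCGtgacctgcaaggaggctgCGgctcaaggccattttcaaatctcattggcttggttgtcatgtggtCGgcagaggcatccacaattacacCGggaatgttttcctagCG
Hoxd11, plus strand, chr3:79992144-79992443: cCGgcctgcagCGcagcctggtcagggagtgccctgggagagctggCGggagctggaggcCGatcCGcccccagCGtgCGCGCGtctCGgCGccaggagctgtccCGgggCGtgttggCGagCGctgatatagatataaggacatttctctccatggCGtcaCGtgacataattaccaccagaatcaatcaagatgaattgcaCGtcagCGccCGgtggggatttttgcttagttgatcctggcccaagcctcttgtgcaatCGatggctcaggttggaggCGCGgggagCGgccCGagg
Hoxa10, minus strand, chr4:82665873-82666172: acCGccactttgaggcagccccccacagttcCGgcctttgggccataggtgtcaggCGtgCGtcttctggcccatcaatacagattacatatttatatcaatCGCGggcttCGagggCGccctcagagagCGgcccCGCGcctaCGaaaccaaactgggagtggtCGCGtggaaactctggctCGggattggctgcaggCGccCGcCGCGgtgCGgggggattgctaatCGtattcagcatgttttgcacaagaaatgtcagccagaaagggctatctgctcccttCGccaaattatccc
Hoxa10, minus strand, chr4:82671441-82671740: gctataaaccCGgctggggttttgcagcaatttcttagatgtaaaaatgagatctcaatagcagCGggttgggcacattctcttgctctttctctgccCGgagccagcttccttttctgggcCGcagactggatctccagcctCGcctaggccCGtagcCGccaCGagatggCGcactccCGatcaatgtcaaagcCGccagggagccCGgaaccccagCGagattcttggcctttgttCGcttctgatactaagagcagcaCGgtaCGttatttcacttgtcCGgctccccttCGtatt
Hoxa11, minus strand, chr4:82676752-82677051: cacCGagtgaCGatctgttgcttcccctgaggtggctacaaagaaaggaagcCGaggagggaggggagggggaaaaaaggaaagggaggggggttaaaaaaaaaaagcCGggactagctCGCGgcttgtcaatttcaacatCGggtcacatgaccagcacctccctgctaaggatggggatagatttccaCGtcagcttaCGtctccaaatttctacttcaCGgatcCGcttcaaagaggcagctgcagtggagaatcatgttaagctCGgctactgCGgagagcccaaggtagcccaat

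The printed windows hold 49 CG dinucleotides for Hoxd8, 27 for Hoxd9, 24 for Hoxd10 and 25 for Hoxd11, and 22 and 18 for the Hoxa10 windows against 13 for Hoxa11. Over the 21 windows the median was 22 CG dinucleotides, with a range of 6 to 49, against a median of 7 over all 33469 RefSeq windows. Their median GC content was 62.7%, against 51.7% over all windows. Among the genes with a window, dense CG was shared by genes at both ends of the expression range. The median was 22 in the 9 windows of genes with a mean of at least 1 FPKM (counts scaled by gene length and library total) and 22 in the 12 windows of genes below it. Hoxd11, with 1 count in all, had about as many as Hoxd9, with 711. The letters TATAAA, searched on both strands, were in 4 of the 21 windows (19.0%), both Hoxa10 windows among them, and in 14.2% of all windows. CCAAT was in 12 of the 21 (57.1%) and in 37.5% of all windows. TGATTNAT, a form of the site bound by Hox and Pbx proteins together, was in 2 of the 21 (9.52%) and in 3.18% of all windows. AGGTCA, the half-site of nuclear receptors, was in 3 of the 21 (14.3%) and in 16.2%. These are matches of letters and were not tested as binding sites.

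The tissue carried a Hox pattern that reached paralog group 10 in cluster a, group 11 in cluster c and group 9 in clusters b and d, and lay at a mean of 0.287 FPKM or lower beyond. Taking a mean of at least 1 FPKM over the 9 libraries as expressed, 16 of the 40 genes were expressed, all of them Hox genes. A mean at or above it was found for 61.1% of all genes, with a median of 8.87 FPKM, against a median of 2.40 FPKM and a range of 1.19 to 7.06 for the 16. Another 15 members had a mean between 0.1 and 1 FPKM and 9 were below 0.1. The member just inside the level was Hoxb9 with a mean of 1.19 FPKM, and the member just outside was Hoxd4 with 0.993. The mean of Hoxb9 was 0.695 FPKM in Hollow, 1.44 in AFMC and 1.43 in AFMC-AA-SP. In Hollow alone, cluster b therefore did not reach group 9 at this level.

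**Figure D1:**
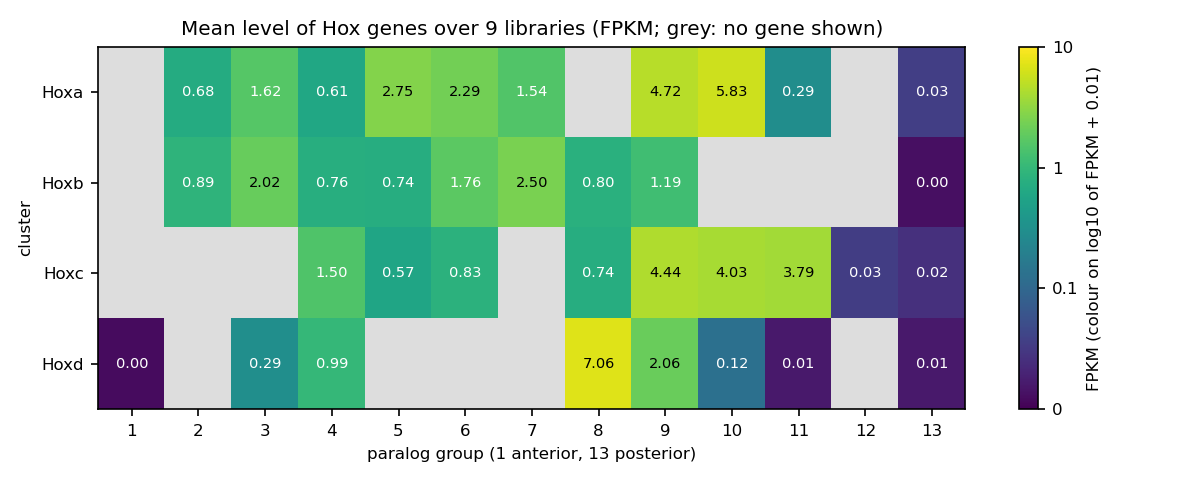
Mean FPKM of Hox genes over the 9 libraries, with clusters as rows and paralog groups as columns. Grey marks positions with no gene shown. The brightest cells lie at Hoxd8 and at groups 9 and 10 of clusters a and c, and the dark cells at groups 12 and 13.

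The genes of highest level came from the centre and the posterior side of the clusters. Hoxd8, of the central group, was at 7.91, 7.27 and 7.30 FPKM in Hollow replicates 1 to 3, 7.12, 7.27 and 7.24 in AFMC, with 6.01, 7.39 and 6.07 in AFMC-AA-SP. Hoxa10, an Abd-B-type gene of the posterior group used in the upper hind limb in mouse, was at 6.45, 4.60 and 6.41 FPKM in Hollow, 4.82, 5.41 and 6.07 in AFMC, with 6.26, 6.11 and 6.30 in AFMC-AA-SP. Hoxd8 was the highest member in 7 libraries and Hoxa10 in 2. Behind them came Hoxa9 at a mean of 4.72 ± 0.493 FPKM (SD, n = 9), Hoxc9 at 4.44 ± 0.938, Hoxc10 at 4.03 ± 0.544 and Hoxc11 at 3.79 ± 0.752. The posterior genes Hoxa9, Hoxc9, Hoxc10 and Hoxc11 are the trunk, lumbar and hind limb genes of their clusters in mouse. These 6 genes were the 6 highest members in 9 of 9 libraries.

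The other 10 expressed genes lay between 1.19 and 2.75 FPKM. Hoxa5, known for its role in the developing lung and neck in mouse, was at 2.75 ± 0.352 FPKM (SD, n = 9), and Hoxb7 at 2.50 ± 0.342. Hoxa6 was at 2.29 ± 0.468 FPKM, Hoxd9 at 2.06 ± 0.343, Hoxb3 at 2.02 ± 0.362 and Hoxb6 at 1.76 ± 0.471. Hoxa3, which patterns the pharyngeal region in mouse, was at 1.62 ± 0.291 FPKM, Hoxa7 at 1.54 ± 0.320, Hoxc4 at 1.5 ± 0.250 and Hoxb9 at 1.19 ± 0.547. The pattern was therefore not only posterior: Hoxa3 and Hoxb3, of an anterior group, stood above the level in 9 of 9 libraries. Each gene's range over libraries overlapped that of its neighbour in the order, so the unpaired ranges do not separate neighbours. Within single libraries Hoxa10 stood above Hoxa9, and Hoxc11 above Hoxa5, in 9 of 9.

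**Figure D2:**
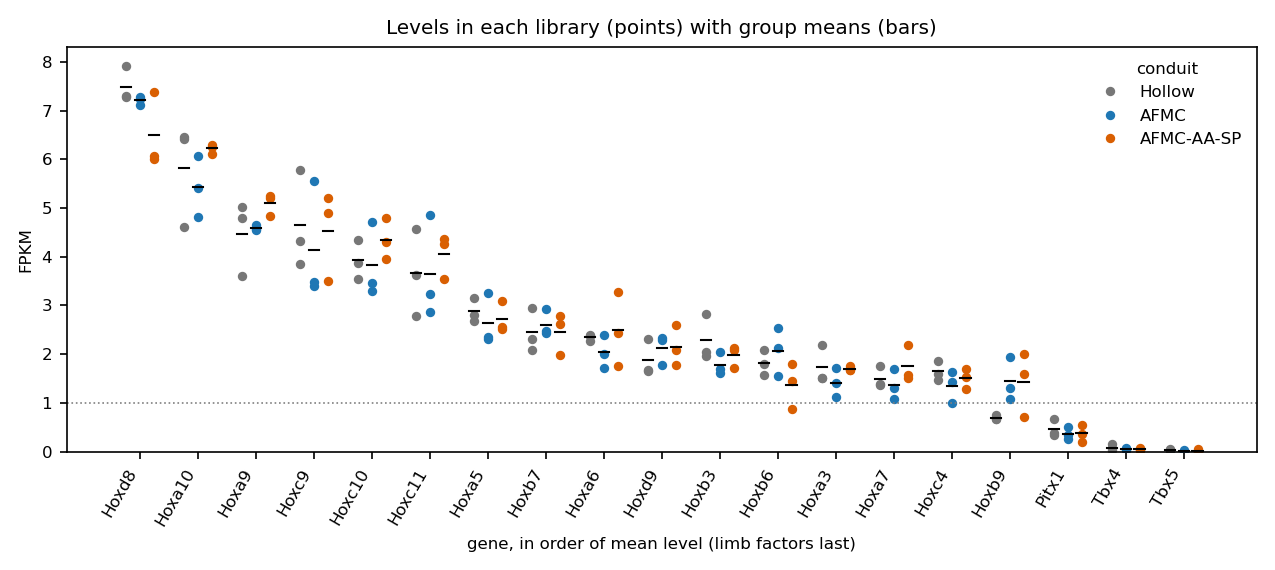
FPKM of the 16 expressed Hox genes and of Pitx1, Tbx4 and Tbx5 in each library (points), with group means as bars and 1 FPKM as a dotted line. The 3 groups overlap for most genes, and the limb factors lie below the line.

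Between libraries the order of the 37 Hox genes was nearly the same. Spearman's rho across these genes, which are not independent replicates and share each library's depth, was 0.948 to 0.983 for the 9 pairs within groups and 0.925 to 0.981 for the 27 pairs between groups. The 16 expressed genes varied over the 9 libraries by a median of 17.3% (coefficient of variation, range 8.79 to 46.0), and the 7095 genes with a mean of 1 to 10 FPKM by a median of 15.1%. Hoxd8 varied least and Hoxb9 most.

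Within each cluster the level dropped sharply past a certain gene. In cluster a, on chromosome 4 of the deposited coordinates (minus strand, Hoxa2 from 81262768, Hoxa13 to 81361091), the mean was 5.83 FPKM for Hoxa10 and 0.287 FPKM for Hoxa11, a 20.3-fold step between genes whose spans lie 1609 bp apart. Hoxa11, a gene of the lower limb segment in mouse, had 124 counts in all, and Hoxa13, a gene of the digits and the hindgut, 7. Hoxa10 was above Hoxa11 in 9 of 9 libraries.

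In cluster d, on chromosome 3 (plus strand, Hoxd13 from 59570646, Hoxd1 to 59667769), the corresponding step lay between Hoxd9 and Hoxd10, whose spans are 2850 bp apart. Hoxd9 was at 2.32, 1.66 and 1.68 FPKM in Hollow, 2.30, 2.33 and 1.77 in AFMC, with 1.78, 2.09 and 2.59 in AFMC-AA-SP. Hoxd10 was at 0.196, 0.0578 and 0.0484 FPKM in Hollow, 0.0623, 0.231 and 0.129 in AFMC, with 0.0804, 0.130 and 0.118 in AFMC-AA-SP, a 17.6-fold lower mean. Hoxd10, with 40 counts over all libraries, was followed by Hoxd11 with 1 count and Hoxd13 with 3. The anterior end of cluster d was as empty, with 1 count for Hoxd1. Hoxd3, the next gene, had 139 counts and a mean of 0.294 FPKM.

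In cluster c, on chromosome 7 (plus strand, Hoxc13 from 134058640, Hoxc4 to 134173133), Hoxc11 had 1358 counts over all libraries. Hoxc12, 15755 bp away, had 4 counts and Hoxc13 had 3. In FPKM, expression also stepped up on the anterior side of this posterior block, from 0.736 for Hoxc8 to 4.44 for Hoxc9, 6.03-fold. In counts, not scaled by length, Hoxc8 had 173 and Hoxc9 had 758. Hoxc6, also on the anterior side, had 1659 counts, more than Hoxc9 or Hoxc11, over a long implied length. The highest paralog number with an expressed gene, 11, was thus reached by Hoxc11, while Hoxa11 and Hoxd11 of the same group were at 0.287 and 0.00600 FPKM.

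In cluster b, on chromosome 10 (plus strand, Hoxb13 from 81160498, Hoxb2 to 81320192), Hoxb9 had 209 counts and Hoxb13, the next gene and 74535 bp away, had 1. The highest gene of this cluster, Hoxb7, lay below Hoxa9, Hoxa10, Hoxc9, Hoxc10 and Hoxc11 in mean level. In all, 8 members had fewer than 10 counts over all libraries, at most 7 in sum and at most 3 in a single library; a count of 0 in a library allows up to 3 counts, or 0.115 to 0.164 CPM, from counting error alone.

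As shares of the summed Hox FPKM, posterior groups 9 to 13 held 45.9% ± 2.66 (SD, n = 9), central groups 4 to 8 held 44.1% ± 2.68 and anterior groups 1 to 3 held 10% ± 0.884. By counts the order of these zones differed, with central groups at 46.3% and posterior groups at 43.3%. By FPKM, the largest single shares were 21.5% for paralog group 9, 17.3% for group 10 and 15.0% for group 8. Group 9 was the only paralog group with genes in all 4 clusters in which 4 of 4 were expressed, by means over the 9 libraries. In Hollow alone Hoxb9 lay below the level, at a mean of 0.695 FPKM. Groups 12 and 13 held 0.0413% and 0.0899%. By cluster, a held 35.7% ± 1.59, c 27.5% ± 2.43, b 18.5% ± 1.72 and d 18.3% ± 1.33.

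**Figure D3:**
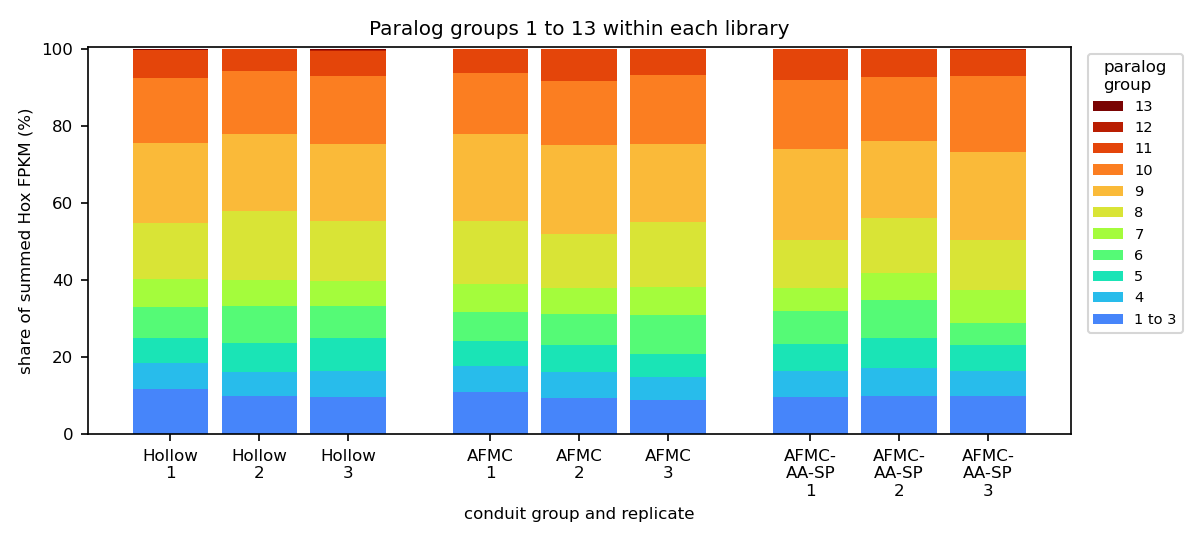
Share of the summed Hox FPKM held by each paralog group in each of the 9 libraries, stacked from the anterior groups 1 to 3, drawn together, at the bottom. Groups 9 and 10 form the widest posterior bands in every library.

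The posterior share was 43.9% ± 1.73 (SD, n = 3) in Hollow, 45.9% ± 1.86 in AFMC and 47.8% ± 3.31 in AFMC-AA-SP. The libraries ran from 42.0 to 45.3% in Hollow, 44.7 to 48.1% in AFMC and 43.9 to 49.7% in AFMC-AA-SP, so all 3 groups overlap. The summed Hox FPKM was 58.0 ± 6.72 in Hollow, 55.9 ± 5.65 in AFMC and 59.4 ± 2.40 in AFMC-AA-SP, and the groups overlap, at 52.0 to 65.3, 51.6 to 62.3 and 57.0 to 61.8 FPKM.

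Length and overlap affect these levels. Hoxc6 had 1659 counts, more than Hoxa9, but its implied length of 10669 bp gave it 0.833 FPKM, while the median length of the members was 1834 bp. Hoxc9, with an implied length of 915 bp, ranked 4 by FPKM and 10 by counts, with 758 counts. The span of Hoxa3 covers those of Hoxa4, Hoxa5 and Hoxa6 on the same strand, and Hoxd4 overlaps a gene on the opposite strand by 687 bp. The libraries keep the strand, but the sources used here do not give the strand setting of the counting, so the levels of these genes are uncertain.

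The limb factors were low in this hind limb nerve tissue. Pitx1 was at 0.661, 0.379 and 0.337 FPKM in Hollow, 0.255, 0.498 and 0.339 in AFMC, with 0.198, 0.553 and 0.363 in AFMC-AA-SP, with 168 counts in all. Tbx4 had 2, 4 and 11 counts in the Hollow libraries, 6, 2 and 4 in the AFMC libraries and 2, 2 and 4 in the loaded ones. Tbx5, the forelimb factor, had 6 counts over all libraries, found in 4 of them. Pitx1 was above Tbx4 in level, at a mean of 0.398 against 0.0593 FPKM, and its groups overlapped in every comparison. Its log2 fold change was -0.30 ± 0.44 (SE) for AFMC against Hollow (95% interval -1.30 to 0.70) and -0.01 ± 0.45 for AFMC-AA-SP against AFMC (-1.04 to 1.02).

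Of the 40 genes, 30 passed the filter on low counts, 29 Hox genes and Pitx1. In a test of any difference among the 3 groups, edgeR called 0 of the 30 and 0 of all 15659 genes tested at an adjusted p under 0.05. At an unadjusted p under 0.05 it gave 2 members, Hoxa11 and Hoxb9 (adjusted p = 0.243 and 0.301), against 16.1% of all genes. The pairwise comparisons share libraries: AFMC enters with opposite sign in the first and second, and Hollow and AFMC-AA-SP each enter 2 of them. Their values are therefore not independent of each other.

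**Figure D4:**
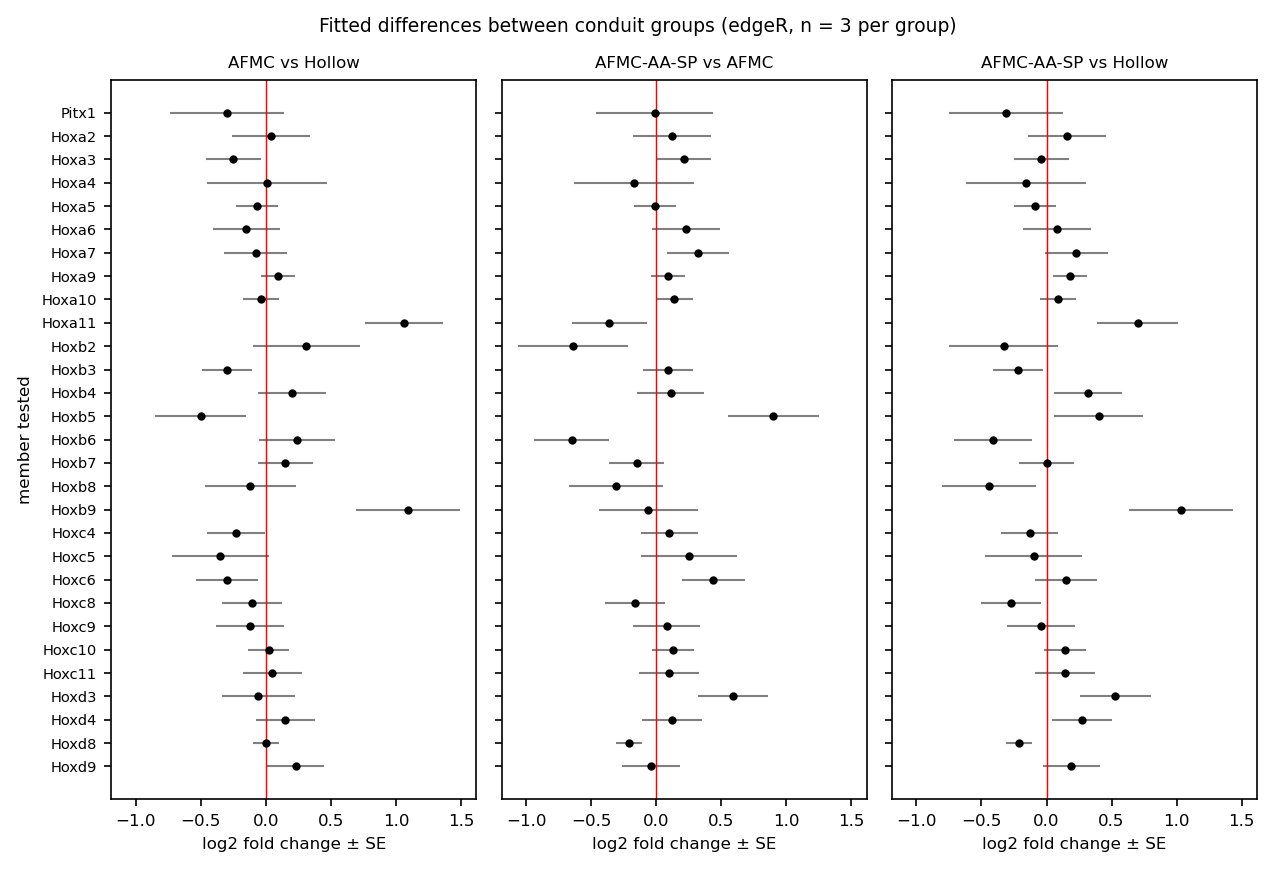
log2 fold change ± SE (edgeR, 3 libraries per group) of 29 of the 30 tested members in each comparison, ordered by cluster and paralog number. Most points lie within 0.5 of 0, and Hoxa11 and Hoxb9 lie near 1 in AFMC against Hollow.

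The comparison of AFMC with Hollow addresses the internal guidance structures. No Hox gene or limb factor passed the test, with 0 of 30 called by edgeR against 0.0% of all genes. DESeq2 called 0 against 7.08%, but gave no adjusted p for 5 members, Hoxa11 among them, which it could therefore not call. At an unadjusted p under 0.05 there were 2 members, both higher in AFMC, against 19.5% of all genes in either direction and 8.4% higher. The same 2, Hoxa11 and Hoxb9, were those whose groups did not overlap, against 22.5% of all genes in either direction, 10.2% higher and 12.3% lower. The members' median log2 fold change was -0.05, and that of all genes was 0.01. Of the 30, 13 were positive and 17 negative, and of all genes 52.1% were positive.

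Hoxa11 was at 0.489, 0.321 and 0.439 CPM in Hollow, from 11, 6 and 10 counts, and at 0.790, 0.811 and 1.04 CPM in AFMC, from 20, 15 and 21 counts. All AFMC libraries were above all Hollow libraries. Its log2 fold change was 1.06 ± 0.30 (SE, n = 3 per group; unadjusted p = 0.00674, adjusted p = 0.134 by edgeR), and 0.92 without AFMC replicate 3. Hoxb9, a thoracic gene, was at 0.622, 0.695 and 0.615 CPM in Hollow and at 1.26, 1.84 and 1.04 CPM in AFMC. The Hollow libraries lay close together and the AFMC libraries were all above them. Its log2 fold change was 1.09 ± 0.40 (SE; unadjusted p = 0.0229, adjusted p = 0.186 by edgeR), and 1.25 without AFMC replicate 3. Hoxb3 had the next smallest p, at -0.30 ± 0.19 (adjusted p = 0.403 by edgeR), with overlapping groups.

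The genes of high level gave narrower intervals. For Hoxd8, Hoxa10, Hoxa9, Hoxc10 and Hoxc11 the log2 fold changes of AFMC against Hollow were 0.00 ± 0.10, -0.04 ± 0.14, 0.09 ± 0.13, 0.02 ± 0.16 and 0.05 ± 0.23. The 95% interval was -0.23 to 0.23 for Hoxd8, -0.36 to 0.27 for Hoxa10 and -0.47 to 0.56 for Hoxc11. Differences within those bounds remain compatible with these libraries.

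AFMC-AA-SP against AFMC addresses the loading with spermidine and ascorbic acid. Here too edgeR called 0 of 30 members against 0.0% of all genes. DESeq2 called 0 against 4.12%, and again gave no adjusted p for 5 members, Hoxa11 and Hoxd3 among them. Among the members, 1 gene, Hoxb5, had an unadjusted p under 0.05 and was higher, against 17.3% of all genes in either direction and 10.1% higher. The groups did not overlap for 5 members, Hoxa9, Hoxb5 and Hoxd3 higher and Hoxa11 and Hoxd8 lower in AFMC-AA-SP, against 22.8% of all genes, 12.5% higher and 10.3% lower. The members' median log2 fold change was 0.09, with 18 positive and 12 negative, against 48.0% of all genes positive.

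Hoxb5, a central-group gene with a role in the developing lung, vessels and enteric nerves in mouse, was at 0.711, 0.919 and 0.745 CPM in AFMC and at 1.31, 1.59 and 1.53 CPM in AFMC-AA-SP. The loaded libraries were all above the unloaded ones, but Hollow, at 0.711, 0.909 and 1.71 CPM, spanned both. Its log2 fold change was 0.90 ± 0.35 (SE; unadjusted p = 0.0297, adjusted p = 0.247 by edgeR). Hoxb6, its neighbour in the cluster, had the opposite sign, at -0.65 ± 0.29 (adjusted p = 0.301 by edgeR), with overlapping groups. Hoxd3 was at 0.632, 0.649 and 0.596 CPM in AFMC and at 1.11, 0.843 and 0.877 CPM in AFMC-AA-SP, which gave 0.59 ± 0.27 on the log2 scale (edgeR adjusted p = 0.310).

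The comparison of AFMC-AA-SP with Hollow sets the full conduit against the empty one. edgeR called 0 of 30 members against 0.0% of all genes, and DESeq2 called 0 against 0.0512%. Among the members, 1 gene, Hoxb9, had an unadjusted p under 0.05 and was higher, against 3.24% of all genes in either direction and 1.69% higher. The groups did not overlap for 3 members, Hoxa11 and Hoxd3 higher and Hoxc8 lower in AFMC-AA-SP, against 10% of all genes, 5.05% higher and 4.96% lower. The median log2 fold change was 0.09, with 16 positive and 14 negative, against 50.2% of all genes positive.

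Hoxb9 had the smallest p here, at 1.84, 1.45 and 0.658 CPM in AFMC-AA-SP against 0.615 to 0.695 CPM in Hollow. Replicate 3 of AFMC-AA-SP lay within the Hollow range while the other two lay well above it. The log2 fold change was 1.03 ± 0.40 (SE; unadjusted p = 0.0294, adjusted p = 1.0 by edgeR), and 1.35 without that library. Hoxa11 had values of 0.726, 0.562 and 0.767 CPM in AFMC-AA-SP, all above Hollow and all below AFMC, with 0.70 ± 0.31 against Hollow (adjusted p = 1.0 by edgeR). Hoxd8, the member of highest FPKM, was at 15.4, 14.4 and 14.2 CPM in Hollow and at 11.6, 14.3 and 12.1 CPM in AFMC-AA-SP, with -0.21 ± 0.10 on the log2 scale (95% interval -0.44 to 0.02, unadjusted p = 0.0659, adjusted p = 1.0 by edgeR).

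**Figure D5:**
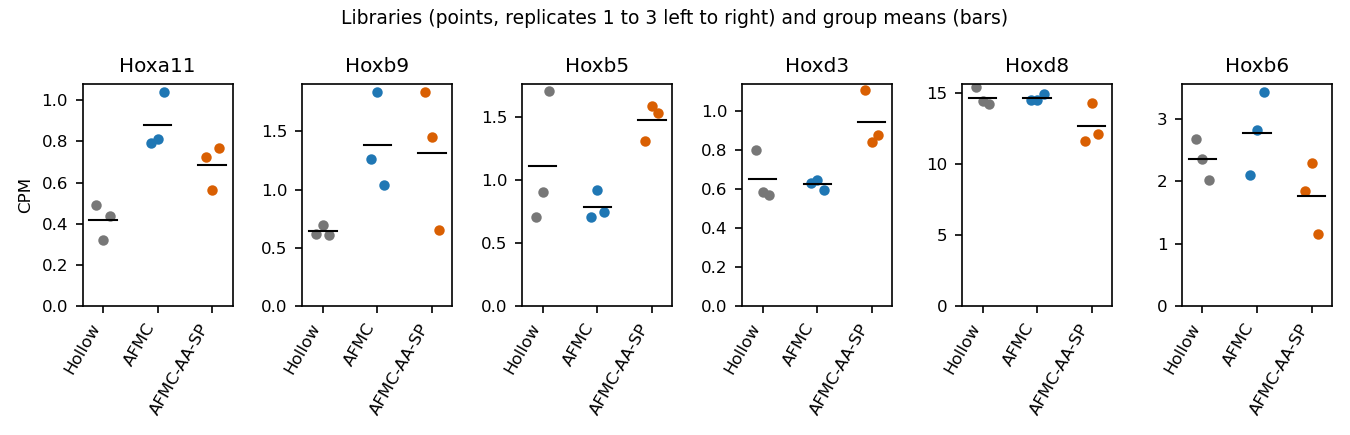
CPM of 6 members in each library (points) with group means as bars. Hoxa11 and Hoxb9 have all AFMC libraries above Hollow, Hoxb5 has all AFMC-AA-SP libraries above AFMC, and Hoxd8 has 2 of 3 AFMC-AA-SP libraries below the other groups.

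TALE homeodomain genes, the class that holds the cofactors with which Hox proteins bind DNA, included genes of higher level than any Hox gene. All 11 listed genes of the Pbx, Meis, Pknox and Tgif families were tested, with Meis3 at 47.4 ± 7.90 FPKM (SD, n = 9), Pbx2 at 19.2 ± 1.03 and Tgif1 at 17.2 ± 1.68. None passed the test in any comparison. In AFMC against Hollow, Pbx4 averaged 0.222 ± 0.0459 CPM (SD, n = 3) in Hollow and 0.524 ± 0.118 in AFMC, with 1.24 ± 0.47 on the log2 scale (SE; adjusted p = 0.197 by edgeR).

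Of 37 other limb and mesenchyme factors, 34 were in the table and 25 were tested, and 0 passed in any comparison. The most abundant were Prrx1, a marker of limb mesenchyme, at 49.3 ± 8.73 FPKM (SD, n = 9), Nr2f2, an orphan nuclear receptor, at 30.2 ± 5.48, and Nr2f1 at 11.2 ± 2.27. In AFMC against Hollow, 2 had an unadjusted p under 0.05 and were higher, and 5 had one and were lower, with a list median of -0.19 on the log2 scale. Of all genes 19.5% had such a p, 8.4% higher and 11.1% lower. Prrx1 was at 130.0 ± 19.7 CPM (SD, n = 3) in AFMC, 176 ± 11.5 in Hollow and 174 ± 10.2 in AFMC-AA-SP, with -0.44 ± 0.11 against Hollow (SE; adjusted p = 0.117 by edgeR). Alx4, which acts in limb and skull patterning, was low throughout, with at most 15 counts in a library. Hollow averaged 0.650 ± 0.132 CPM and AFMC 0.109 ± 0.00959, with -2.50 ± 0.40 (adjusted p = 0.102 by edgeR). The Schwann cell marker sums given above were also lower in AFMC, with their part in these values was not tested.

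Factors of head and neural territories were mostly near 0. Of 19 listed, 17 were in the table and 5 were tested, and Otx2, Pax3 and Pax6 had at most 3 counts in any library. The 2 highest were Lhx6 at 3.33 ± 0.659 FPKM and Gbx2 at 2.61 ± 0.969. Gbx2, a factor of the hindbrain boundary, averaged 5.44 ± 1.26 CPM (SD, n = 3) in Hollow and 2.76 ± 0.426 in AFMC, with -0.98 ± 0.24 (SE; adjusted p = 0.116 by edgeR). In AFMC-AA-SP against AFMC, Lhx8 was at 0.169 ± 0.0664 CPM against 0.786 ± 0.311 CPM, with -2.18 ± 0.48 (adjusted p = 0.122 by edgeR), and Dlx1 at 0.894 ± 0.453 CPM against 0.298 ± 0.0431 CPM, with 1.56 ± 0.47 (adjusted p = 0.172 by edgeR).

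All 26 listed chromatin regulators of the Hox clusters, the Polycomb and Trithorax proteins and their partners, were tested and 0 passed in any comparison. Phc2, a Polycomb subunit, was highest at 34.5 ± 0.840 FPKM (SD, n = 9), followed by Rnf2, the catalytic ubiquitin ligase of that complex, at 17.2 ± 1.23. Kmt2a, the methyltransferase that maintains Hox expression, was at 65.8 ± 14.1 CPM (SD, n = 3) in AFMC, 99.3 ± 10.8 in Hollow and 98.2 ± 13 in AFMC-AA-SP. Its log2 fold change was -0.60 ± 0.16 for AFMC against Hollow and 0.58 ± 0.16 for AFMC-AA-SP against AFMC (SE; adjusted p = 0.128 and 0.162 by edgeR), both resting on the same AFMC libraries.

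Signals that set positional codes in the embryo were also measured. Of 15 retinoid, Wnt, Fgf and related genes in the table, 13 were tested and 0 passed in any comparison. Crabp2, which carries retinoic acid to its receptors, was highest at 33.6 ± 3.90 FPKM (SD, n = 9), followed by the receptor Rara at 21.9 ± 2.28. Fgf10, the growth factor that starts limb outgrowth, averaged 1.99 ± 0.649 CPM (SD, n = 3) in Hollow, 1.79 ± 0.601 in AFMC and 4.19 ± 0.429 in AFMC-AA-SP. Its difference between AFMC-AA-SP and AFMC was 1.22 ± 0.31 on the log2 scale (SE; edgeR adjusted p = 0.138). Adipocyte markers, which did not pass the test either, had higher values in the same comparison, and their part in the values of that comparison was not tested. Meox2 and Meox1, homeobox genes of paraxial mesoderm, were at 15.8 ± 1.47 and 5.74 ± 1.69 FPKM (SD, n = 9), and neither passed the test.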

How the data were processed

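Per the file headers, the deposited table holds counts and FPKM of 21486 genes in 9 libraries. The authors' counts are unscaled whole numbers, and the deposited FPKM are those counts per library total and per 1 length a gene. Libraries were poly(A)-selected, strand-keeping and read as 150-base pairs, per the labels' protocols. The aligner, the counting program and the build of the deposited gene spans are not given in sources used here, and coordinates of the deposited table are printed as listed.

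Levels are FPKM over the 9 libraries. Counts were fitted with edgeR 4.0.16 in R 4.3.3: filterByExpr left 15659 genes, TMM factors, 1 quasi-likelihood model over all 9 libraries, two-sided Benjamini-Hochberg adjusted p under 0.05 over all genes tested. CPM use TMM-scaled totals, and SE is the size of the log2 fold change divided by the square root of F, and 95% intervals use the t distribution with the fit's residual and prior degrees of freedom. The members and lists were chosen with earlier results of these data known. The named genes are the members at or above 1 FPKM, the 3 of smallest p in each comparison, the limb factors, and from each list the 2 of smallest p in a comparison and those of highest level. Other members and genes named, such as those whose groups did not overlap, were chosen after their values were seen. An exact permutation test of 3 against 3 libraries cannot give a p below 0.1. Alternatives were RLE and upper-quartile factors, other filters, only the groups compared, DESeq2 1.42.0, a block for the replicate number, limma-trend 3.58.1 on log2 of FPKM plus 1 or plus 0.1, a length offset and leaving out each library. The steps were checked on simulated counts. Changes were planted only in genes above the mean CPM of most tested members, Hoxa11, Hoxb9 and Hoxb5 among them. That check does not cover changes at such low levels. Reads carry no molecular identifiers, and limits from a count of 0 cover counting error only. RefSeq lists 39 rat Hox genes, and Hoxb1 and Hoxd12 were not analysed here. Values of some single genes are not reported here.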

Additional observations from a re-analysis of the deposited data

How the results depend on the processing

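No Hox gene or limb factor was called in any comparison under any alternative run, including DESeq2, other scalings and filters, FPKM on a log scale and leaving out each library. Hoxa11 could not be called in some of these runs. DESeq2 gave it no adjusted p in the comparisons that use AFMC, and the filter of at least 1 CPM in 3 libraries left it out. Of 1425 alternative values for the 90 member log2 fold changes, 70 had the other sign, spread over 34 values, and none of those values was called. The number of expressed members depends on the level chosen: 26 at a mean of at least 0.5 FPKM against 16 at 1 FPKM and 11 at 2 FPKM. Leaving out each library gave 16 to 17. By counts instead of FPKM, paralog group 9 held 15.1% and group 10 held 21.4% of the Hox sum.

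Over the whole table the number of called genes did depend on the tool: DESeq2 gave 1021 for AFMC against Hollow, 594 for AFMC-AA-SP against AFMC and 8 for the remaining comparison. Without AFMC replicate 2, edgeR gave 894 and 579 in the comparisons that use AFMC, with no member among them. With the replicate number as a replicate block, edgeR called 0 members in each comparison, and 1, 2 and 0 genes overall. The labels do not say what the number means. Deviations of libraries with the same number had correlations of -0.09 to 0.20 over 9 pairs, of which 2, both of replicate 2, were above 0.1. Without values for libraries of different numbers beside them, these correlations cannot decide whether the numbers pair the libraries. The main fit did not pair them. Low counts limit Hoxa11 and Hoxb9, which had at most 21 and 38 counts in a library.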
